A study of Mus musculus with 11 samples.

Results

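The glycolysis enzymes described here are 10 genes given by symbol: the hexokinases Hk1 and Hk2, the phosphofructokinases Pfkl and Pfkp, aldolase Aldoa, triosephosphate isomerase Tpi1, phosphoglycerate kinase Pgk1, enolase Eno1, pyruvate kinase Pkm and lactate dehydrogenase Ldha. Rows of the value table were matched to them through Entrez Gene identifiers, which found 9 of the 10 among 23835 named genes; Eno1 was not analysed here. Tumour cells carrying MMTV-rtTA and TetO-Wnt1, a transgene pair in which the MMTV promoter drives a doxycycline-dependent activator of the oncogene Wnt1, and labelled with H2B-eGFP, were transplanted orthotopically into female nu/nu hosts, which have no thymus and so few T cells. Primary tumour cells (4 arrays, doxycycline given, labelled untreated), residual lesion cells (3 arrays, 28 days after doxycycline withdrawal) and recurrent tumour cells (4 arrays, labelled as under Wnt1 inhibition) were isolated as cells positive for the green protein. The labels give neither animal ages nor how many animals stand behind an array, so each p-value reflects only the spread between these arrays, part of which may be technical.

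Glycolysis converts glucose to pyruvate in the cytosol and yields ATP without oxygen. Hexokinase traps glucose in the cell, phosphofructokinase commits it to the pathway, and lactate dehydrogenase turns pyruvate into lactate and restores NAD+. Many tumours and dividing cells run this pathway at a high rate, and several of its genes are classical targets of HIF-1, the hypoxia-inducible factor, and of MYC.

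Promoters are shown for the 5 members called in 2 of the comparisons (Hk2, Pfkl, Tpi1, Pkm and Ldha) and for Pgk1, which makes the first ATP of the pathway. RefSeq windows of GRCm38.p6, 300 bases long (250 before and 50 after each listed start), were searched on both strands for ACGTG and GCGTG, the core letters that HIF-1 binds, and for CACGTG, the E-box that MYC binds, which contains ACGTG and so counts under both. All 10 members had windows, 17 in all, some of which overlap within a gene. ACGTG lay in 7 of the 17, against 19.6% of 32851 windows of all genes; GCGTG lay in 8, against 32.4%; either lay in 13, against 43.8%; and CACGTG lay in 1, against 7.15%. The 150 bases before the start are printed 5′ to 3′ on the gene's strand, with matches in capitals. Pkm and Ldha have 2 windows each, of which the one with more matches is printed; the other Pkm window holds none of these letters, and the other Ldha window holds 2 GCGTG and no E-box. Hk2 is at chr6:82774455-82774604 (minus strand), Pfkl at chr10:78009808-78009957 (minus strand), Tpi1 at chr6:124814159-124814308 (minus strand), Pgk1 at chrX:106186950-106187099 (plus strand), Pkm at chr9:59657077-59657226 (plus strand) and Ldha at chr7:46845654-46845803 (plus strand).
Hk2: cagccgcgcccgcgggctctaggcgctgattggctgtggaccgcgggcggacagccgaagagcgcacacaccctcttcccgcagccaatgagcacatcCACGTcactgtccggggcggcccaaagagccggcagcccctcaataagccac
Pfkl: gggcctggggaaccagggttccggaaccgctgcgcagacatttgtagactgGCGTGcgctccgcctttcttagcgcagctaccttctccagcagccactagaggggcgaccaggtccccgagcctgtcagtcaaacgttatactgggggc
Tpi1: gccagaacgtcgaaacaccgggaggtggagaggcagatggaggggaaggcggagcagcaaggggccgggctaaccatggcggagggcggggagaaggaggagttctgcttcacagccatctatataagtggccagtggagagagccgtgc
Pgk1: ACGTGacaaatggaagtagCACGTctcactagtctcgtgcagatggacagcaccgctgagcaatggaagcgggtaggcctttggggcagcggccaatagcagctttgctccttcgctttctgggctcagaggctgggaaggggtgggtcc
Pkm: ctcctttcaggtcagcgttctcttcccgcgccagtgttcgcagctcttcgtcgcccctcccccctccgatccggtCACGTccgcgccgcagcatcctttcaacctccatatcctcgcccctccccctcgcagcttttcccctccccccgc
Ldha: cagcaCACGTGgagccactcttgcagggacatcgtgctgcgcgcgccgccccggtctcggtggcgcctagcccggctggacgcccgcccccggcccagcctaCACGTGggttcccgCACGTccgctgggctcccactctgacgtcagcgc
Ldha shows 2 E-boxes and a further ACGTG core on the other strand, Pgk1 a core in each orientation, and Tpi1 none of these letters in its window. A match describes the letters only and is no measure of binding, and its link to the changes between stages was not tested.

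Each array gave 1 log2 signal per gene, made by the authors with RMA, so a difference of 1 is a doubling. Median signals were 4.29 to 4.41 over all arrays, and interquartile ranges were 3.73 to 3.81 on primary, 3.52 to 3.57 on residual and 3.67 to 3.74 on recurrent arrays. The 95th percentile of 1083 olfactory receptor genes, a class mammary cells are not known to use, was 4.00 to 4.39, highest on residual arrays (4.35 to 4.39), and marks where a signal cannot be told from background. Wnt1 read 2.89 to 3.26 on all 11 arrays, below that mark; the labels do not say which part of Wnt1 the probes cover, so it checks nothing about induction. Of the epithelial markers Krt8 and Krt18 were bright, while Krt5 read 3.71 to 4.22 on all arrays, at or near background. Epcam read 3.14 to 3.45 on primary, 3.47, 6.29 and 4.10 on residual and 3.32 to 3.45 on recurrent arrays. Residual 2 stood apart in this list, with a mean of 7.09 over the 8 epithelial markers against 6.23 and 6.15 on residual 1 and 3. Its Cdh1 read 8.11 and its Krt19 5.60. When residual 2 was left out, 6 enzymes were called lower in residual than in primary cells and 5 higher in recurrent than in residual cells.

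**Figure D1:**
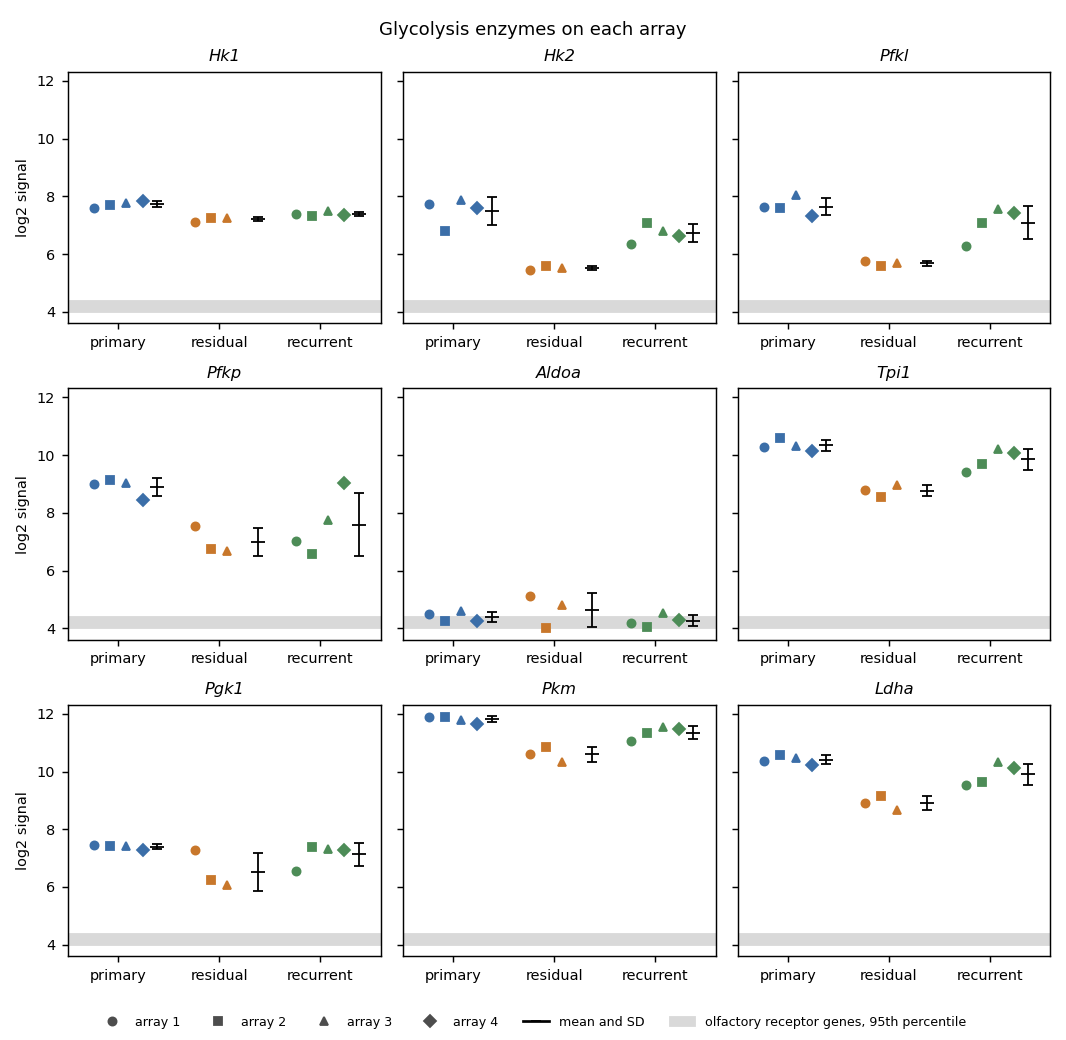
Log2 signal (vertical axis) of the 9 measured glycolysis enzymes on each of the 11 arrays, by stage, with the group mean and SD beside the points and the background range of 4.00 to 4.39 in grey. Hk2, Pfkl, Tpi1, Pkm and Ldha are lowest on the 3 residual arrays, and Aldoa is the dimmest, at 4.00 to 5.11.

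Hexokinases catalyse the entry step. Hk2, the inducible form raised in many tumours, read 7.72, 6.81, 7.87 and 7.59 on primary arrays 1 to 4, 5.45, 5.60 and 5.51 on residual arrays 1 to 3, and 6.35, 7.09, 6.81 and 6.63 on recurrent arrays 1 to 4. Every residual value lay below every other value, and the recurrent range overlapped the primary range through primary 2. Hk1, the form most tissues use, read 7.60, 7.71, 7.76 and 7.85 on primary arrays, 7.13, 7.24 and 7.25 on residual arrays, and 7.39, 7.34, 7.49 and 7.36 on recurrent arrays. Its 3 groups did not overlap, but the whole span was only 0.72.

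Phosphofructokinase is the committed step. Pfkl, the liver-type subunit, read 7.62, 7.62, 8.04 and 7.33 on primary arrays, 5.75, 5.61 and 5.68 on residual arrays, and 6.29, 7.07, 7.56 and 7.44 on recurrent arrays. The residual values were tightly grouped and lowest, and recurrent 1 lay nearer to them than the other recurrent arrays did. Pfkp, the platelet-type subunit, read 8.99, 9.15, 9.04 and 8.45 on primary arrays, 7.53, 6.73 and 6.67 on residual arrays, and 7.01, 6.57, 7.75 and 9.05 on recurrent arrays. Recurrent arrays spread most for this gene: recurrent 2 was below all residual arrays and recurrent 4 was within the primary range.

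Aldolase splits the 6-carbon sugar, and triosephosphate isomerase interconverts its products. Tpi1 read 10.28, 10.60, 10.33 and 10.14 on primary arrays, 8.79, 8.56 and 8.95 on residual arrays, and 9.40, 9.71, 10.22 and 10.06 on recurrent arrays. Residual values were the lowest without overlap, and recurrent 3 reached the primary range. Aldoa, the main aldolase of most tissues, read 4.26 to 4.61 on primary arrays, 5.11, 4.00 and 4.79 on residual arrays and 4.06 to 4.52 on recurrent arrays. All groups overlapped, and these values lay near the background mark, above that of their own array on 9 of 11 arrays, so this row carries little information on Aldoa.

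The later steps yield ATP and lactate. Pgk1 read 7.47, 7.43, 7.41 and 7.28 on primary arrays, 7.28, 6.24 and 6.07 on residual arrays, and 6.54, 7.38, 7.30 and 7.29 on recurrent arrays. Residual 1 reached the primary range while the other residual arrays lay below it, and recurrent 1 stood alone among the recurrent arrays. Pkm, the pyruvate kinase gene of both the M1 and M2 forms, read 11.90, 11.87, 11.79 and 11.66 on primary arrays, 10.62, 10.84 and 10.32 on residual arrays, and 11.05, 11.34, 11.54 and 11.46 on recurrent arrays. Its 3 groups did not overlap; the row does not separate the splice forms. Ldha read 10.37, 10.58, 10.46 and 10.21 on primary arrays, 8.90, 9.14 and 8.66 on residual arrays, and 9.52, 9.64, 10.31 and 10.11 on recurrent arrays. Residual values were again lowest, and only recurrent 3 entered the primary range. Mouse glycolysis genes have processed pseudogenes, so which copy a probe read is not certain.

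Residual cells were called lower than primary cells for 7 of the 9 measured enzymes, by 1.44-fold (Hk1) to 3.94-fold (Hk2). Of the 9 differences 8 were negative. In limma, at an adjusted p under 0.05, 0 members were higher (0 also at an unadjusted p under 0.05) and 2 did not pass, where 7.61% of all genes were called lower, 4.81% higher and 12.4% in either direction. The median log2 fold change was -1.51 over the members and 0.03 over all genes. Groups did not overlap for 7 members, all lower, where 13.7% of all genes lay lower and 11.1% higher without overlap. In bulk RNA, fewer cells of a type and less RNA per cell cannot be told apart.

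Hk2 was 5.52 ± 0.07 in residual and 7.50 ± 0.47 in primary cells (mean ± SD, n = 3 and 4), a log2 fold change of -1.98 (SE 0.24, adjusted p = 0.000324). Pfkl changed by -1.97 (SE 0.27, adjusted p = 0.000694). For Tpi1 the means were 8.77 ± 0.20 in residual and 10.34 ± 0.19 in primary cells, a change of -1.57 (SE 0.20, adjusted p = 0.000394). Ldha, the lactate-forming enzyme, changed by -1.51 (SE 0.20, adjusted p = 0.000602), and Pkm by -1.21 (SE 0.16, adjusted p = 0.000511). Hk1 fell least among the called members, by 0.53 (95% interval -0.77 to -0.28, adjusted p = 0.00939). Pfkp changed by -1.93 with a wide interval of -2.97 to -0.89 (adjusted p = 0.0209). The Pfkp call was lost without primary 1, 2 or 3 (adjusted p = 0.0514, 0.0570 and 0.0525) and without residual 2 or 3 (0.0740 and 0.0764).

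Pgk1 did not pass (-0.87, interval -1.48 to -0.26, adjusted p = 0.0665), but did so without residual 1 (-1.24, adjusted p = 0.00633) or recurrent 1 (adjusted p = 0.0408) and with arrays centred on their medians (adjusted p = 0.0441). Aldoa differed by 0.23 (interval -0.27 to 0.74, adjusted p = 0.592).

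**Figure D2:**
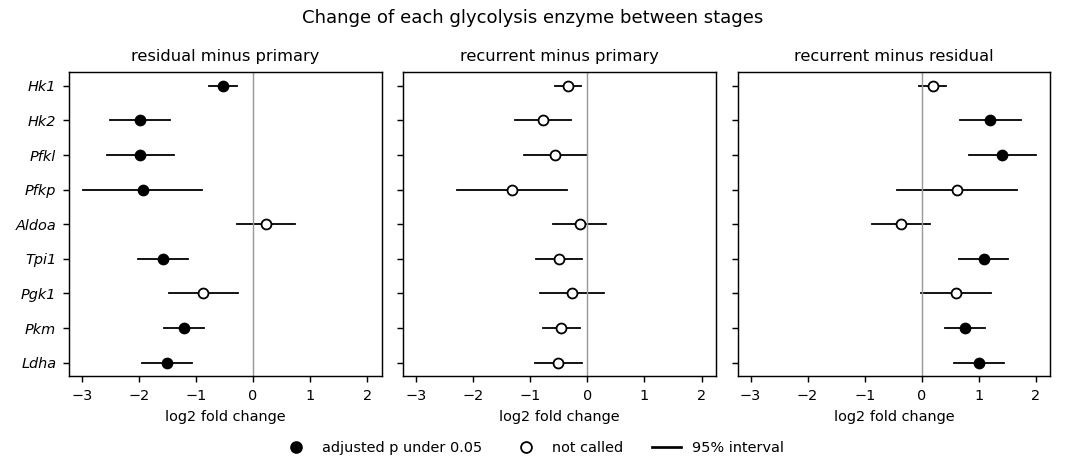
Log2 fold change (horizontal axis) of each measured enzyme in the 3 comparisons with its 95% interval; filled points have an adjusted p under 0.05. Residual against primary has 7 filled points, all below 0; recurrent against primary has none; and recurrent against residual has 5, all above 0.

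Recurrent cells were called higher than residual cells for 5 of the 9 enzymes: Pfkl, Hk2, Tpi1, Ldha and Pkm. Of the 9 differences 1 was negative. In limma, 0 members were lower (0 also at an unadjusted p under 0.05) and 4 did not pass, where 3.58% of all genes were called higher, 2.19% lower and 5.78% in either direction. The median was 0.75 over the members and -0.03 over all genes. Groups did not overlap for 6 members, all higher, where 8.18% of all genes lay higher and 7.32% lower without overlap. The 3 comparisons share arrays in pairs, so their signs are not independent.

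Pfkl was 7.09 ± 0.57 in recurrent and 5.68 ± 0.07 in residual cells (SD, n = 4 and 3) and rose by 1.41 (SE 0.27, adjusted p = 0.0107). Hk2 averaged 6.72 ± 0.31 in recurrent and 5.52 ± 0.07 in residual cells, a rise of 1.20 (SE 0.24, adjusted p = 0.0148). Tpi1 rose by 1.08 (SE 0.20, adjusted p = 0.00865), Ldha by 1.00 (SE 0.20, adjusted p = 0.0145) and Pkm by 0.75 (SE 0.16, adjusted p = 0.0179). The size of the Pfkp difference, 0.62, was uncertain (interval -0.43 to 1.66, adjusted p = 0.539), and that of Hk1 was 0.19 (interval -0.05 to 0.43, adjusted p = 0.395). Pgk1 differed by 0.60 (interval -0.01 to 1.21, adjusted p = 0.265), and by 0.97 without residual 1 (adjusted p = 0.0377).

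Of these 5 calls, 4 were lost under at least 1 alternative at the same threshold, and that of Tpi1 was not. With only the recurrent and residual arrays in the fit, Hk2 and Tpi1 were called (adjusted p = 0.0176 and 0.0453), while Pfkl, Ldha and Pkm were not (0.0505, 0.0679 and 0.0767). The Hk2 call was lost without residual 1 (adjusted p = 0.0514), those of Ldha and Pkm without residual 3 (0.0568 and 0.0644), and that of Pkm with arrays scaled to one median and interquartile range (0.52, adjusted p = 0.111).

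Against primary cells, recurrent cells had 0 of 9 enzymes called in limma, where 1.8% of all genes were called in either direction, 0.986% lower and 0.818% higher. All 9 differences were negative, as were 51.2% of all genes, with a median of -0.49 over the members and -0.01 over all genes. At an unadjusted p under 0.05, 7 members were lower, against 7.70% of all genes; with a trended, robust variance 0 were called. Hk1 and Pkm lay lower without overlap, where 5.38% of all genes did and 3.64% lay higher.

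Hk1 differed by -0.34 (interval -0.56 to -0.11, adjusted p = 0.141) and Pkm by -0.46 (interval -0.78 to -0.14, adjusted p = 0.165). For Hk2 the difference was -0.78 (interval -1.27 to -0.29, adjusted p = 0.124), which passed without primary 2 (-1.01, adjusted p = 0.0221). Pfkp gave the widest interval, -2.28 to -0.35 around -1.32 (adjusted p = 0.184), and passed without recurrent 4 (-1.80, adjusted p = 0.0163). Ldha, Tpi1 and Pfkl differed by -0.51, -0.49 and -0.56 (adjusted p = 0.235, 0.246 and 0.354), and Pgk1 by -0.27 (interval -0.84 to 0.29, adjusted p = 0.729). The intervals of Hk2 and Pfkp lay below 0 and reached over 1 log2 unit, while that of Pgk1 spanned 0. The enzymes are therefore not shown to be back at the primary level.

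The 4 recurrent arrays were unlike each other in these genes. Placing each value on a scale from the residual mean (0%) to the primary mean (100%), the median over the 8 members other than Aldoa was 36.3% on recurrent 1, 60.8% on recurrent 2, 83.2% on recurrent 3 and 81.5% on recurrent 4. Recurrent 1 ran from 1.02% for Pgk1 to 41.8% for Hk2 and was the lowest recurrent array for 6 of the 8 members. Recurrent 3 was the highest for 5 of them, with 95.5% for Pfkl, 93.8% for Ldha and 92.3% for Tpi1. Recurrent 2 spread widest, with -21.1% for Pfkp and 98.0% for Pgk1. Hk1 stayed between 25.1% and 54.0% on all 4 arrays. Of the 4 arrays none is labelled apart from the others.

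**Figure D3:**
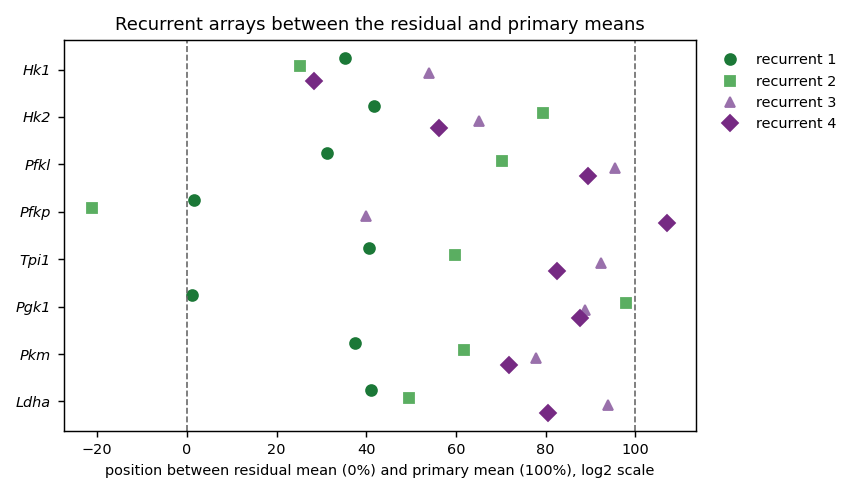
Position of each recurrent array (marker) between the residual mean (0%) and the primary mean (100%) on the log2 scale, for the 8 enzymes other than Aldoa. Recurrent 1 lies at or below 41.8% for every enzyme, while recurrent 3 and 4 lie at 71.8% or more for Pfkl, Tpi1, Pgk1, Pkm and Ldha.

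Pairs of isozymes were compared by their difference within each array, so that only unequal change counts. Hk2 minus Hk1 averaged -1.68 ± 0.05 in residual and -0.23 ± 0.48 in primary cells (SD, n = 3 and 4), a shift of -1.45 (exact two-sided permutation test, p = 0.0571, adjusted p = 0.171 over 12 tests of 4 pairs). This test doubles the smaller tail, so with 3 against 4 arrays its smallest p is 0.0571 and it cannot pass 0.05. Ldha minus Ldhb, the heart-type subunit, averaged 4.28 ± 0.38 in residual and 6.04 ± 0.10 in primary cells (shift -1.76, exact p = 0.0571, adjusted p = 0.171). Ldhb itself was dim, at 3.88 to 5.25 over all arrays. Pfkl minus Pfkp averaged -1.30 ± 0.42 in residual and -1.26 ± 0.24 in primary cells (shift -0.04, exact p = 0.971). Between recurrent and primary cells, where 0.0286 was the smallest p possible, Pfkl minus Pfkp averaged -0.50 ± 0.88 in recurrent and -1.26 ± 0.24 in primary cells (SD, n = 4 each; shift 0.76, exact p = 0.171, adjusted p = 0.392). For Aldoa and Aldoc, the brain-type aldolase, the shifts in the 3 comparisons ran from -0.29 to 0.41 (exact p from 0.571 to 0.800).

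Most other steps and isozymes of the pathway were not called. Of 19 measured genes (Gapdh was not analysed here) 2 were lower, 1 higher and 16 not called in residual against primary cells, with a median of -0.08. These counts were near the shares of all genes, 7.61% lower and 4.81% higher, so they say little about the list. Gpi1, the isomerase between hexokinase and phosphofructokinase, read 10.01, 9.86 and 10.12 on residual arrays, against 10.95, 11.20, 11.03 and 10.98 on primary arrays, and fell by 1.04 (adjusted p = 0.0156). The groups were far apart relative to their spread. Pgam1, phosphoglycerate mutase, also passed (-0.82, adjusted p = 0.0384), but read 2.46 to 2.94 in residual and 2.91 to 3.67 in primary cells, below background. Bpgm, which makes 2,3-bisphosphoglycerate, went the other way, with 7.52, 8.03 and 7.98 on residual arrays against 5.93, 6.54, 6.26 and 6.47 on primary arrays, a rise of 1.54 (adjusted p = 0.0400).

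Between recurrent and residual cells 1 of the 19 was called, where 5.78% of all genes were: Eno3, the muscle-type enolase. It read 6.82, 7.80, 9.34 and 7.81 on recurrent arrays, against 6.22, 6.02 and 6.35 on residual arrays, and rose by 1.75 (adjusted p = 0.0357). Recurrent 3 was the brightest. Markers of skeletal muscle, where Eno3 is typically abundant, had 0 of 8 called, and their summed signal was 182, 178, 272 and 153 on recurrent arrays 1 to 4, against 161 to 207 on residual arrays. The highest sum was on recurrent 3, where the fast troponin Tnnt3 read 6.61 (5.03 to 5.18 on the other recurrent arrays) and Tnni2 6.32 (4.74 to 5.23). The rest of the list was not raised there in this way. On recurrent 3 Acta1 read 5.09 (4.80 to 5.29 on the others), Ckm 3.64 (3.57 to 3.65) and Myl1 4.35 (4.29 to 4.88). Mb read 4.03 (3.55 to 3.93), Myh4 2.45 (2.18 to 2.84) and Myh1 2.61 (3.26 to 4.87). Without recurrent 3 the Eno3 change was 1.28 (adjusted p = 0.0176). The part of muscle RNA in it was not tested. Between recurrent and primary cells 0 of 19 were called. At an unadjusted p under 0.05, 1 was lower and 2 higher, where 7.70% and 5.87% of all genes were. Bpgm (1.34, adjusted p = 0.141) and Gapdhs (0.89, adjusted p = 0.167) had the smallest p.

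Of 16 transport genes 2 were lower in residual against primary cells, where 7.61% of all genes were. Slc2a1, the glucose transporter GLUT1, read 9.55, 9.44 and 9.34 on residual arrays, against 10.55, 10.59, 10.84 and 10.18 on primary arrays, and fell by 1.10 (adjusted p = 0.0337). Slc16a1, the lactate and pyruvate transporter MCT1, read 7.89, 7.79 and 7.28 on residual arrays, against 9.07, 9.23, 9.29 and 9.18 on primary arrays, and fell by 1.54 (adjusted p = 0.0153). Neither pair of groups overlapped. The other 14 were not called. In recurrent cells Slc16a1 read 8.66, 8.39, 6.95 and 7.29, so recurrent 3 and 4 were lowest, unlike most enzymes. Between recurrent and primary cells 0 of 16 were called. At an unadjusted p under 0.05, 3 were lower, where 7.70% of all genes were. They included Slc16a1 (-1.37, adjusted p = 0.0669) and Slc2a3, the GLUT3 transporter (-1.49, adjusted p = 0.117). Between recurrent and residual cells 0 were called, and 0 had an unadjusted p under 0.05.

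**Figure D4:**
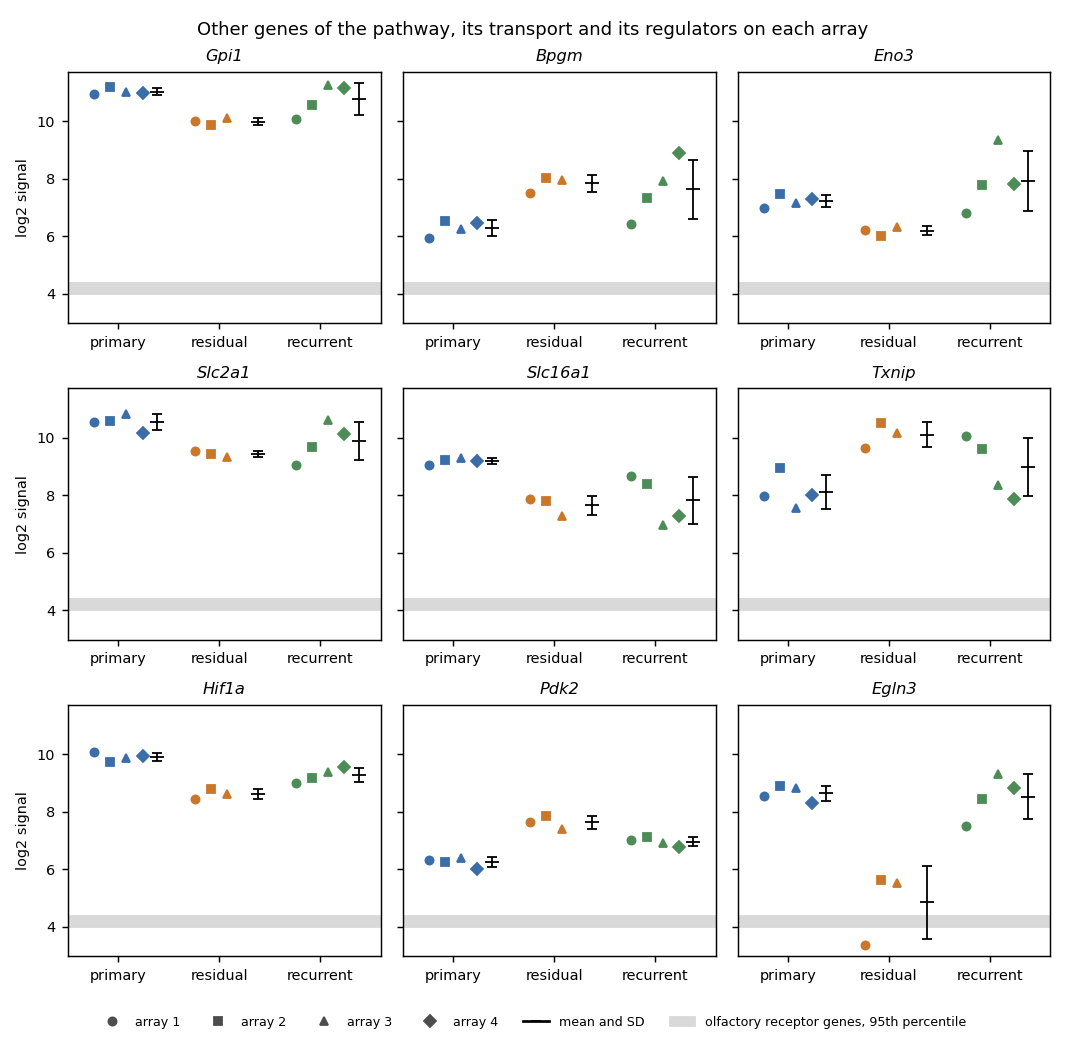
Log2 signal (vertical axis) of 9 other genes of the pathway, its transport and its regulators on each array by stage, with the group mean and SD and the background range of 4.00 to 4.39 in grey. Gpi1, Slc2a1, Slc16a1, Hif1a and Egln3 are lower and Bpgm, Txnip and Pdk2 higher on residual than on primary arrays.

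Among 11 regulators of flux 1 was lower and 1 higher in residual against primary cells, near the shares of all genes (7.61% and 4.81%). Hif1a, the oxygen-regulated subunit of HIF-1, read 8.44, 8.81 and 8.63 on residual arrays, against 10.08, 9.73, 9.89 and 9.93 on primary arrays, and fell by 1.28 (adjusted p = 0.000334). It rose by 0.66 in recurrent against residual cells (adjusted p = 0.0327). Txnip, an inhibitor of glucose uptake that glucose itself induces, read 9.64, 10.51 and 10.17 on residual arrays, against 7.97, 8.96, 7.54 and 8.01 on primary arrays, and rose by 1.99 (adjusted p = 0.0213). On recurrent arrays it read 10.07, 9.61, 8.38 and 7.89, highest where the enzymes were lowest. Myc had means of 9.11 in residual and 9.49 in primary cells and was not called.

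At the exit to mitochondria, 1 of 13 genes of pyruvate entry was higher and 1 lower in residual against primary cells. Of all genes 4.81% were called higher and 7.61% lower in that comparison. Pdk2, a kinase that switches pyruvate dehydrogenase off, read 7.65, 7.85 and 7.39 on residual arrays, against 6.33, 6.25, 6.41 and 6.01 on primary arrays, a rise of 1.38 (adjusted p = 0.000149). It rose in recurrent against primary cells too (0.71, adjusted p = 0.0278) and fell in recurrent against residual cells (-0.67, adjusted p = 0.0245). Other kinases of pyruvate dehydrogenase were not called in residual against primary cells. Pdk1 (-1.21, adjusted p = 0.0973, groups not overlapping) and Pdk3 (-0.42, adjusted p = 0.538) were lower, and Pdk4 was higher (0.83, adjusted p = 0.393). Pdha1, the catalytic subunit of that complex, fell by 0.63 in residual against primary cells (adjusted p = 0.0101). Of 8 pentose phosphate genes 4 were lower in residual cells, G6pdx, Pgls, Tkt and Taldo1, with changes of -0.53 to -0.87. In recurrent against primary cells 1 of the 8, Rpe, was lower (-0.79, adjusted p = 0.0275), where 0.986% of all genes were. Of 7 genes of gluconeogenesis 1, Pck2, was lower in residual cells (-0.56, adjusted p = 0.0442).

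Hypoxia targets outside the pathway were counted beside the enzymes. Of 14 measured, 4 were lower and 0 higher in residual against primary cells, with a median of -0.70. The shares of all genes were 7.61% lower and 4.81% higher. Egln3, an oxygen-sensing prolyl hydroxylase, read 3.38, 5.64 and 5.54 on residual arrays, against 8.56, 8.88, 8.83 and 8.30 on primary arrays (-3.79, adjusted p = 0.000765). Residual 1 was below the background mark. Bnip3, P4ha1 and Kdm3a changed by -2.03, -1.25 and -0.62 (adjusted p = 0.0435, 0.0117 and 0.0179). In recurrent against residual cells Egln3 and P4ha1 rose, by 3.67 and 1.11 (adjusted p = 0.00191 and 0.0372). Of all genes 3.58% were called higher in that comparison. In recurrent against primary cells 0 of 14 were called, and 0 had an unadjusted p under 0.05.

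Many of these pathway calls were lost when 1 array, often any of several, was left out, while their signs held under every alternative run. Leaving out arrays one at a time, the calls of Hif1a, Pdk2, Pdha1, G6pdx, Egln3 and P4ha1 in residual against primary cells stood each time, as did that of Egln3 in recurrent against residual cells. In residual against primary cells the Gpi1 call was lost without residual 2 (adjusted p = 0.0585), that of Slc16a1 without residual 3 (0.0648) and that of Kdm3a without residual 2 or 3 (up to 0.0719). That of Txnip was lost without primary 1, 3 or 4 or residual 2 or 3 (up to 0.0816), and that of Slc2a1 without primary 1, 2 or 3 or any residual array (up to 0.0993). Bpgm lost its call without any 1 primary or residual array or recurrent 2 (up to 0.117), Bnip3 without any primary array or residual 1 or 3 (up to 0.158), and Pgam1 without primary 2, 3 or 4, residual 1 or 3, or recurrent 2 (up to 0.125). Among the pentose phosphate genes, the call of Tkt was lost without any primary array or residual 1 or 3 (up to 0.0946), that of Pgls without primary 1, 2 or 3 or residual 2 or 3 (up to 0.125), and that of Taldo1 without primary 1, 2 or 4 or any residual array (up to 0.0873). Pck2 needed primary 1, 2 and 3, all residual arrays and recurrent 1 and 2 (up to 0.119).

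In recurrent against primary cells, the Pdk2 call was lost without any primary array or recurrent 1, 2 or 3 (up to 0.0879), and that of Rpe without any primary array or recurrent 1 (up to 0.0836). In recurrent against residual cells, the Eno3 call was lost without any primary or residual array or recurrent 2 or 4 (up to 0.108), and that of P4ha1 without any primary or residual array or recurrent 2, 3 or 4 (up to 0.102). The Hif1a call there was lost without primary 3 or 4, residual 1 or 3, or recurrent 3 or 4 (up to 0.114), and that of Pdk2 without residual 1 or 2 or recurrent 3 or 4 (up to 0.0910).

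The mean of the hypoxia targets followed the order of the enzymes on recurrent arrays 1 to 3. It was 7.17, 7.74, 8.53 and 8.22 on recurrent arrays 1 to 4, where the mean of the 8 enzymes other than Aldoa was 7.94, 8.27, 8.62 and 8.68. On primary arrays both means were highest on primary 3 and lowest on primary 4. On residual arrays 1 to 3 the orders were opposite. Hypoxia targets averaged 6.86, 6.88 and 7.09 there, and the 8 enzymes 7.68, 7.50 and 7.39. The mean of mitosis genes was 7.79, 7.40, 7.55 and 7.76 on recurrent arrays 1 to 4, lowest on recurrent 2. All 20 mitosis genes were called lower in residual against primary cells (median -3.24), where 7.61% of all genes were. All 20 were called higher in recurrent against residual cells (median 2.97), where 3.58% of all genes were. Among them Ube2c, which marks mitotic proteins for destruction, changed by -5.09 and the cyclin Ccnb2 by -4.48 in residual against primary cells. The part of hypoxia or of mitosis in the level of the enzymes was not tested.

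**Figure D5:**
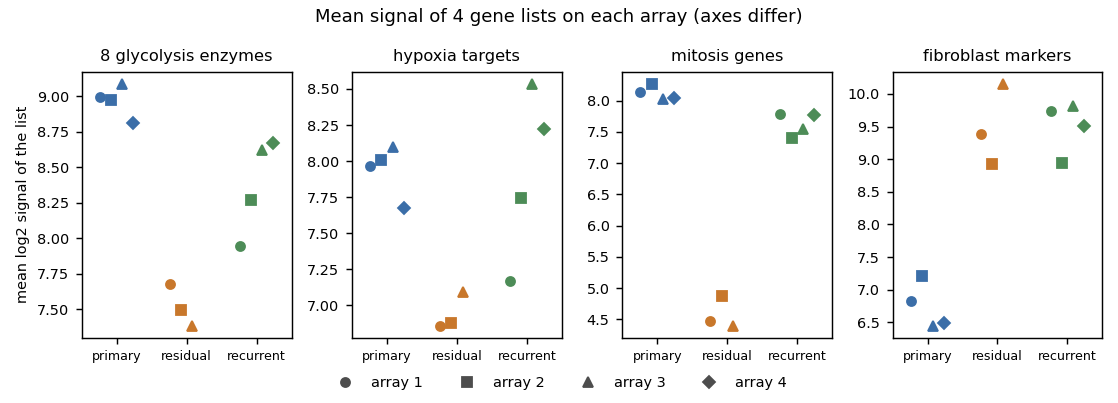
Mean log2 signal (vertical axes, which differ between panels) of the 8 enzymes other than Aldoa, 14 hypoxia targets, 20 mitosis genes and 10 fibroblast markers on each array, by stage. Recurrent 1 is the lowest recurrent array for enzymes and hypoxia targets but not for mitosis genes, and fibroblast markers are high on residual and recurrent arrays alike.

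Markers of other cells moved as well. Of all genes 4.81% were called higher and 7.61% lower in residual against primary cells. In recurrent against primary cells the shares were 0.818% and 0.986%. Fibroblast markers were higher for 9 of 10 genes in residual against primary cells, among them the collagen Col3a1 (4.00, adjusted p = 0.000306) and the proteoglycan Dcn (2.68, adjusted p = 0.000656). Their summed linear signal was 10666 to 17620 on residual arrays and 1794 to 2528 on primary arrays. On recurrent arrays it was 10104 to 14915, with 7 of 10 higher than in primary cells and 0 of 10 called against residual cells. Against residual cells 1 was lower at an unadjusted p under 0.05, where 9.52% of all genes were. Macrophage and monocyte markers were called lower for 2 of 9 in residual against primary cells. All 9 differences were negative (median -1.11), and 5 were lower at an unadjusted p under 0.05, where 13.9% of all genes were. Their summed signal was 441 to 637 on residual, against 864 to 1395 on primary arrays. On recurrent arrays it was 491 to 893, with 1 of 9 called lower than in primary cells. Endothelial, lymphocyte, adipocyte, skeletal muscle and erythroid markers had 0 called in any comparison, with at most 3 genes of a list at an unadjusted p under 0.05. Above their own array's background mark were 1 to 3 of 8 endothelial, 1 to 2 of 8 lymphocyte, 1 to 4 of 7 adipocyte, 4 to 5 of 8 muscle and 0 to 2 of 5 erythroid markers. Kdr, Tek and Cd3e stayed below 4.00 on all arrays and Adipoq on all but recurrent 1 (4.59). Brighter values were Cdh5 at 10.13 on recurrent 3, Pecam1 at 5.28 and Plin4 at 5.85 on recurrent 2, and, on primary 2, Fabp4 at 6.38 and Hbb-b1 at 6.96. Of 8 epithelial markers 2 were lower and 2 higher in residual against primary cells, with a median of 0.73. Without overlap 5 of 8 lay higher and 2 lower, where 11.1% of all genes lay higher and 13.7% lower. The luminal keratins Krt8 and Krt18 changed by -1.67 and -2.32, and the basal keratin Krt14 and the claudin Cldn4 by 2.73 and 0.72. Not called were Epcam (1.33), Cdh1 (0.78), the luminal keratin Krt19 (0.75) and the basal keratin Krt5 (0.22). The part of these markers and cells in the level of the enzymes was not tested.

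The 8 enzymes other than Aldoa varied together over the 11 arrays, with Pearson's r from 0.52 to 0.98 between pairs (median 0.82 of 28 pairs). Aldoa had r = -0.16 with the mean of the other 8. These points share 3 groups, so the values describe the arrays and carry no p. Genes were ranked by how closely their pattern over 11 arrays followed the mean of the 9 members, Aldoa included. The members, predicted genes, genes with Rik names, and olfactory and vomeronasal receptor genes were left out. Most alike were Stip1, a co-chaperone of Hsp90 (r = 0.97), and Polr1d, a subunit shared by RNA polymerases I and III (0.97). Next came Pno1, a factor of ribosome assembly (0.96), Arpc4, a subunit of the Arp2/3 complex (0.96), and Grsf1, a mitochondrial RNA-binding protein (0.96). The most opposite were Fmod, the matrix proteoglycan fibromodulin (-0.99), Bcl2l11, the death-promoting protein Bim (-0.97), and N4bp2l1 (-0.97).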

How the data were processed

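The authors deposited 1 table of log2 signals, made with RMA in R 3.0.2 per the submitters' processing notes, with 24479 rows (1 per Entrez Gene identifier) and 11 arrays. RMA subtracts background, puts arrays on one distribution and combines probes, which compresses differences between dim signals. The probe annotation's version was not given in the sources used here. Symbols came from the platform's table for 23281 rows and from RefSeq (GRCm38.p6) for 556; 642 rows had no name, and of 2 repeated symbols the brighter row was kept, leaving 23835 genes. Groups came from sample titles. The labels give no batch.

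The log2 values were used as deposited, with no filter. A linear model of the 3 groups was fitted to all 11 arrays with limma 3.58.1 in R 4.3.3 (8 residual and 3.46 prior degrees of freedom). Two-sided p-values were adjusted by Benjamini-Hochberg over all 23835 genes, and genes with an adjusted p under 0.05 count as called. Intervals are 95% intervals of the moderated test. Isozyme pairs were tested by exact permutation (scipy 1.17.1). The number of arrays limits the precision. The fit was first tested on simulated data with known changes.

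The members and lists were chosen with earlier results of these data known. Named genes were all members, and from each pathway list the top 4 called genes by size of change (where none was called, the top 2 by p), called or brightest cell markers, and the 5 most and 3 least alike genes; Myc and several cell markers were picked after their values were seen. Alternatives were a fit on only the pair of groups, a replicate block, 3 other scalings of arrays, a filter on dim genes, a trended and robust variance, a stricter threshold and leaving out each array. Figures used matplotlib 3.10.9.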

Additional observations from a re-analysis of the deposited data

Results flagged for a closer look

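Gaps between 1 array and its group were checked for 66 genes named in the text, cell markers included, in the primary and recurrent groups, 132 groups of 4 arrays. In 13 of them the farthest array stood apart by more than Dixon's critical value of 0.829 of the range. That count cannot be set against the 1 in 20 of chance, because some genes were picked after their values were seen. Equal values on the other arrays, as for Tek, also force a large ratio of gap to range. Among the 13, Pgk1 was the only member: it read 6.54 on recurrent 1, and 7.29 to 7.38 on the other recurrent arrays. Of the pathway and likeness genes, Pgam1 read 2.91 on primary 1 (3.58 to 3.67 on the other primary arrays, all below background). Tkt read 7.93 on primary 2 (7.73 to 7.75 on the others) and Arpc4 9.05 on primary 2 (8.86 to 8.89). The widest gap was in an endothelial marker: Cdh5 read 10.13 on recurrent 3 and 4.66 to 5.09 on the other recurrent arrays. Tnnt3 read 6.61 on recurrent 3 (5.03 to 5.18), Plin4 5.85 on recurrent 2 (4.47 to 4.65) and Adipoq 4.59 on recurrent 1 (3.09 to 3.34). Dim markers with small gaps were Krt19 at 4.10 on primary 1 (3.61 to 3.66), Cldn4 at 3.62 on primary 2 (3.91 to 3.94), Epcam at 3.32 on recurrent 2 (3.43 to 3.45), Cd3e at 3.56 on recurrent 4 (3.46 on the others) and Tek at 2.635 on primary 1 (2.639 on the others). No explanation was tested for these values. The residual group of 3 arrays was not checked in this way.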

How the results depend on the processing

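Of the members' log2 fold changes under all alternatives run, 484 kept direction and side of the threshold, 21 lost a call, 7 gained one and 1 changed sign. Lower members in residual against primary cells numbered 7, and 6 to 8 under the alternatives run. Higher members in recurrent against residual cells numbered 5, but 2 with only those groups in the fit, 2 with the replicate block, 1 at an adjusted p under 0.01 and 3 to 5 when arrays were left out in turn. Called members in recurrent against primary cells numbered 0, and 0 to 1 when arrays were left out. Leaving out arrays moved Aldoa in residual against primary cells between -0.00392 and 0.55 and the unequal change of Pfkl and Pfkp there between -0.19 and 0.20. It moved that of Aldoa and Aldoc between -0.0165 and 1.14 in residual against primary, -0.0677 and 0.27 in recurrent against primary, and -1.03 and 0.13 in recurrent against residual cells. None of these was called, and the test of pairs as run cannot pass 0.05 with 3 arrays in a group. Genes called over the whole table in residual against primary cells numbered 2960, and 1375 at an adjusted p under 0.01; with arrays centred on their medians 2333 were lower and 899 higher, against 1814 and 1146. For recurrent against primary cells they numbered 430, but 277 with the replicate block, 142 at an adjusted p under 0.01 and 203 to 420 with arrays left out. For recurrent against residual cells they numbered 1377, but 609 with only those groups in the fit, 872 with the replicate block, 521 at an adjusted p under 0.01 and 936 to 1325 with arrays left out. Replicate numbers are not shown to pair the arrays: deviations of same-numbered arrays correlated at -0.08 to 0.02. With the replicate block the Pfkp call in residual against primary cells was lost (adjusted p = 0.0684). So were those of Hk2, Ldha and Pkm in recurrent against residual cells (0.0558, 0.0544 and 0.0627). For called pathway genes, added after the data were seen, every sign held. In residual against primary cells the block lost Bnip3, G6pdx, Kdm3a, Pgls, Slc2a1 and Taldo1, and equal interquartile ranges lost these and Gpi1. In recurrent against residual cells the block and the fit on that pair of groups each lost Eno3, Hif1a, P4ha1 and Pdk2. The causes of these moves were not tested.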
